A study of Mus musculus with 24 samples.

Results

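Cytosolic ribosomal protein genes were taken from an RNA sequencing table of mouse dorsal hippocampus by symbol, as every gene named Rpl or Rps with a number (with or without a closing a, x or y), Rplp0, Rplp1, Rplp2 or Rpsa. The rule found 76 of the 19661 genes in the table, 45 of the large and 31 of the small ribosomal subunit. The S6 kinases and the mitochondrial ribosomal protein genes are not among them. The 24 libraries, 1 per mouse, fell into 4 groups of 6. Baf53b+/- mice, heterozygous for the Actl6b tm1Grc allele with the strain background given as B6J.129S6, were either taken 30 minutes after object location training, in which a mouse learns where objects stand, or taken from the home cage. Wild-type mice, with the background given as C57BL/6J, were treated in the same 2 ways. RNA came from the dorsal hippocampus of both sides, and the sources used here do not give age or sex. The labels thus tie strain background to genotype, so that the 2 cannot be told apart in any comparison between genotypes.

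The ribosome builds proteins from mRNA, and each subunit is an RNA scaffold covered by proteins that cells make in nearly equal numbers. Ribosomal protein mRNAs are short, abundant in all cells and begin with a tract of pyrimidines through which mTOR and Larp1 set how much of them is translated. In neurons, translation in cell bodies and dendrites is needed for lasting memory, and some ribosomal protein mRNAs are known to lie in neurites. Mammalian genomes also carry many processed pseudogenes of these mRNAs, which copy the coding sequence almost letter by letter.

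That copying can be seen in the first 60 coding bases, shown here because the share of coding sequence with exact copies is set beside the levels further on. The number of differing bases in these short stretches does not itself separate high from low members. Each member is followed by an annotated pseudogene, with the letters in which the pseudogene differs in capitals. The pseudogene shown was picked as a close match, from between 2 (Rpl4) and 31 (Rpl9) candidates per member. The few differing bases are thus a result of that choice and need not be typical of a member's other pseudogenes. The first 3 pairs belong to the 3 members with the highest level in the table, the last 3 pairs to the 3 members with the lowest.
Rpl4: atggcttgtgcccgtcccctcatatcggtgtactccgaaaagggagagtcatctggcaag
Gm5835: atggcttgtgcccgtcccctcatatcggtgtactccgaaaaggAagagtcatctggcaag
Rps15: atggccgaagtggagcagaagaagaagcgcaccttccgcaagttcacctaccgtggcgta
Rps15-ps2: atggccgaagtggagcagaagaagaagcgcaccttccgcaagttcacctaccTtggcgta
Rplp1: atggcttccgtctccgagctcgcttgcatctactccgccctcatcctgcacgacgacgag
Gm11942: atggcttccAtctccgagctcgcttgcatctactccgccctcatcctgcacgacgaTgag
Rpl9: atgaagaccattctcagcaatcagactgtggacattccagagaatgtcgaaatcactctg
Rpl9-ps7: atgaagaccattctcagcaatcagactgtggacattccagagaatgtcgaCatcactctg
Rpl10: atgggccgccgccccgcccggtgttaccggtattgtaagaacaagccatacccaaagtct
Rpl10-ps1: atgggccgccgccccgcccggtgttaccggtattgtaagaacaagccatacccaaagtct
Rpl24: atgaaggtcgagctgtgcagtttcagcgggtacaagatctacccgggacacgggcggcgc
Gm9385: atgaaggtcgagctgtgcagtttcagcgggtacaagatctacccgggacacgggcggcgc
The sequences are from GENCODE transcripts on GRCm38 and are written 5′ to 3′ on the strand of each gene. Rpl4 lies at chr9:64173375-64178666 (plus strand) and Gm5835 at chr1:143093347-143094616 (minus), and they differed in 1 base. Rps15 lies at chr10:80292453-80294114 (plus) and Rps15-ps2 at chr6:58017506-58017943 (plus), and they also differed in 1. Rplp1 lies at chr9:61913284-61914542 (minus) and Gm11942 at chr4:32964888-32965232 (plus), with 2 differing bases. The other 3 pairs belong to members near the bottom of the table. Rpl9 at chr5:65388364-65391444 (minus) and Rpl9-ps7 at chr2:70458982-70459560 (plus) differed in 1 base. Rpl10 at chrX:74270812-74273135 (plus) and Rpl10-ps1 at chr2:105554201-105554845 (minus) differed in 0. Rpl24 at chr16:55966275-55971435 (plus) and Gm9385 at chr9:116040593-116041064 (minus) likewise differed in 0.

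Levels in the table spanned a wide range for proteins of a single particle. RPKM divides a gene's reads by the kilobases of its gene model and by the M (mega) reads of the library, so levels of different genes are compared per length. The mean over the 24 animals ran from 0.303 RPKM for Rpl24 to 322 RPKM for Rpl4, a 1064-fold range. Rpl4, Rps15, Rplp1 and Rpl8 stood highest, at 322, 251, 235 and 149 RPKM. At the other end stood Rpl24, Rpl10, Rpl9, Rps27a and Rpl11, between 0.303 and 0.371 RPKM. At the median depth of 34.49 M reads, 0.303 RPKM is 10.5 reads per kilobase of transcript and 322 RPKM is 11118. Of the 76 members, 38 reached a mean of 10 RPKM, 19 reached 50 RPKM and 14 stayed below 1 RPKM. The median was 9.08 RPKM for the large subunit and 12.5 RPKM for the small subunit.

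The order of the levels went with how much of each coding sequence occurs once among the annotated transcripts. For every 50-base window of a member's coding sequence, the length of the reads, it was asked whether the same 50 letters occur in a transcript of any other gene, pseudogenes included. The share of windows found nowhere else had a median of 8.57% over the members. It was 100% over the 76 mitochondrial ribosomal protein genes. It was also 100% over 82 of the 84 nuclear-encoded respiratory chain genes, those with a matching annotated transcript. The respiratory chain genes were taken by symbol, so not all need be subunits of the chain. Across the 76 members, level and this share went together with a Spearman rho of 0.80. The same rho was 0.18 across the respiratory chain genes and 0.14 across the mitochondrial ribosomal protein genes. Genes are not independent replicates, so these are descriptions. With up to 2 mismatches allowed in a match the rho across members was 0.61.

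Members with the most unique coding sequence were the ones with high levels. In Rps3, a small subunit protein at 94.3 RPKM, 91.9% of coding windows were unique, and in Rpl8 at 149 RPKM it was 91.3%. The 11 members with over 50% unique windows had a median level of 110 RPKM and none lay below 25.4 RPKM. The 29 members with 0 unique coding windows had a median of 1.13 RPKM. They include 13 of the 14 members below 1 RPKM, and in the remaining one, Rpsa, also known as the laminin receptor, 1.2% of coding windows were unique. Some members went against this order. Rpl41, which encodes the shortest ribosomal protein, stood at 82.7 RPKM with 0 unique coding windows, and Rps25 at 47.9 RPKM with 1.84%. Rpl15, Rpl27a and Rps16 had 0 unique coding windows and levels of 14.9, 15.1 and 15.1 RPKM. These shares leave out the untranslated parts of the mRNA. Over the whole mRNA the unique share ran from 7.87% (Rpl10) to 51.5% (Rpl5) among the 14 members below 1 RPKM. It was 46.9% in Rpl41, 38.8% in Rps25, and 24.8%, 64.1% and 58.4% in Rpl15, Rpl27a and Rps16. A low coding share thus does not mean that the mRNA holds no unique sequence. The sources used here do not say how reads that match several places were counted. The part of these copies in the levels was not tested, so the levels of different members are not read as an order of mRNA abundance.

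**Figure D1:**
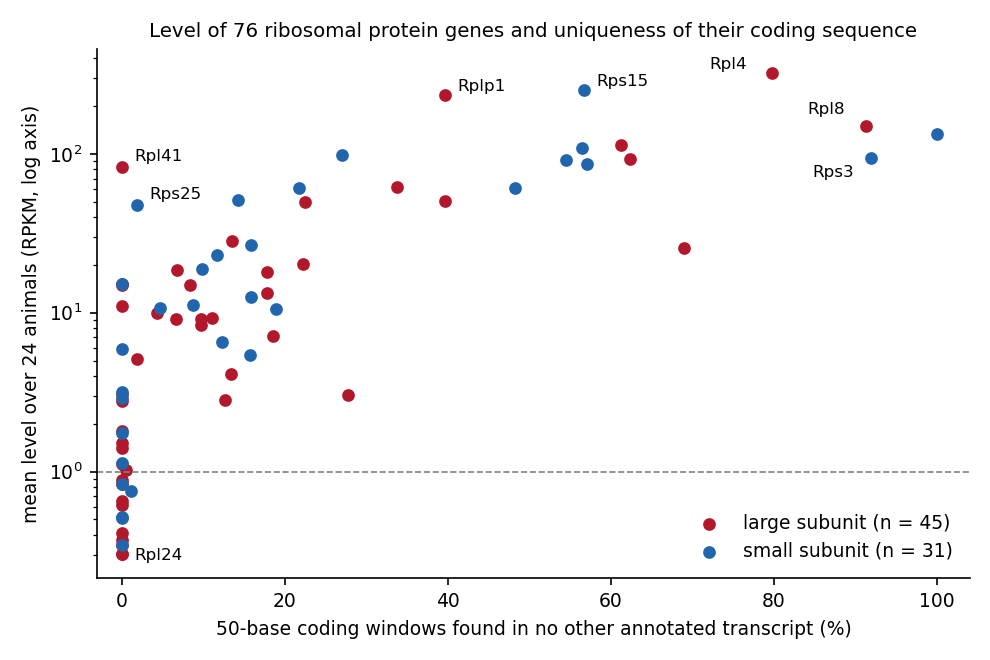
Mean level over 24 animals (RPKM, log axis) of each of the 76 ribosomal protein genes against the share of its 50-base coding windows found in no other annotated transcript (%), large subunit in red and small subunit in blue. The dashed line marks 1 RPKM, below which 14 members lie, all of them with at most 1.2% unique windows, while the 11 members with over 50% lie at 25.4 RPKM or higher.

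Some members serve to scale other measurements. Rplp0, Rpl13a, Rps18, Rpl19, Rpl32, Rpl4 and Rps29 are widely used as reference genes in quantitative PCR. Their mean levels were 50.9, 115, 6.54, 0.878, 93.3, 322 and 3.18 RPKM, so that Rpl19 fell below the filter used for testing. Across the 24 animals Rpl4 varied least among these 7, between 294 and 352 RPKM, with a within-group SD of 0.072 on the log2(RPKM + 0.5) scale. Rplp0 had a within-group SD of 0.20 on that scale, which is described further on.

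The 24 libraries had between 28.46 and 46.99 M reads, as recovered from the smallest steps of the RPKM values. Markers of CA1, CA3 and dentate gyrus, the fields of the hippocampus, were detected in every library, with summed levels of 196 to 278, 235 to 360 and 84.7 to 213 RPKM. Choroid plexus markers, from the tissue that makes cerebrospinal fluid, of which 13 of 14 reached a mean of 1 RPKM, summed to between 16.04 and 4788 RPKM, and 6 libraries of the 4 groups (2 Baf53b+/- trained, 2 Baf53b+/- home cage, 1 wild-type trained, 1 wild-type home cage) stood at 1291 RPKM or more against at most 316 RPKM in the others. Actl6b, the targeted gene, had 27.3, 27.7 and 31.1 RPKM (lowest, median and highest) in trained Baf53b+/- mice, against 46.4, 51.1 and 54.4 RPKM in trained wild-type mice. It had 28.7, 29.6 and 32.4 RPKM in home cage Baf53b+/- mice, against 49.8, 51.1 and 53.0 RPKM in home cage wild-type mice. No library of one genotype overlapped the other, and the differences of -0.83 ± 0.04 and -0.76 ± 0.04 (log2, SE) passed limma's test at adjusted p of 2.3e-13 and 1.5e-12. Fos, an early response gene, averaged 12.6 ± 1.7 RPKM in trained and 1.86 ± 0.44 RPKM in home cage Baf53b+/- mice, and 14.3 ± 4.6 RPKM in trained and 1.89 ± 0.69 RPKM in home cage wild-type mice (SD, n = 6 each).

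Summed over all members, ribosomal protein RPKM was nearly the same in the 4 groups. The sums averaged 2662 ± 68.3 RPKM in trained and 2662 ± 138 RPKM in home cage Baf53b+/- mice, and 2696 ± 135 RPKM in trained and 2663 ± 111 RPKM in home cage wild-type mice (SD, n = 6 each). The group means thus lay close together while single animals ranged from 2434 to 2904 RPKM. The large subunit summed to 1413 ± 46.0 and 1424 ± 86.3 RPKM in trained and home cage Baf53b+/- mice, and to 1439 ± 82.6 and 1427 ± 65.9 RPKM in trained and home cage wild-type mice. For the small subunit the same sums were 1249 ± 27.7 and 1238 ± 53.7 RPKM, and 1257 ± 60.1 and 1236 ± 47.1 RPKM. All of these group ranges overlapped.

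The balance between the subunits was also steady. The small over large ratio of summed RPKM was 0.849, 0.888 and 0.910 (lowest, median and highest) in trained and 0.850, 0.868 and 0.899 in home cage Baf53b+/- mice. In trained wild-type mice it was 0.833, 0.879 and 0.910, and in home cage wild-type mice 0.845, 0.865 and 0.885. The ratio compares RPKM sums that a few members dominate, so it is not the ratio of subunits. Members made up 0.921%, 0.915%, 0.932% and 0.922% of all RPKM in the same 4 groups on average. In bulk tissue, fewer cells of a type and less RNA per cell cannot be told apart.

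**Figure D2:**
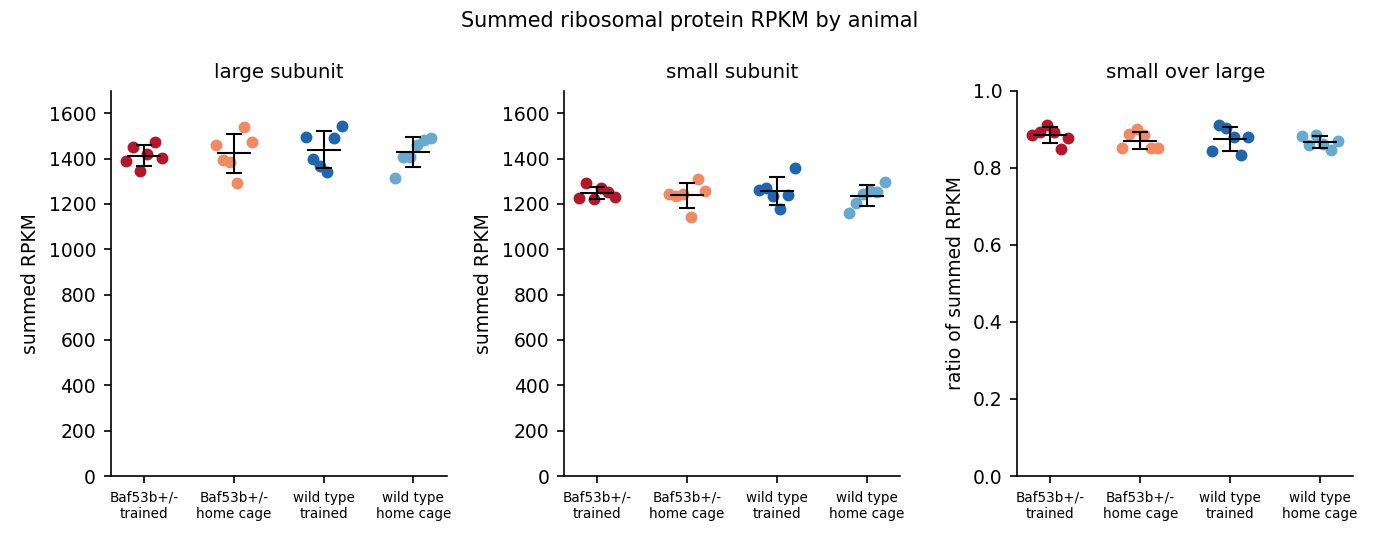
Summed RPKM of large subunit members, of small subunit members and the ratio of small to large in each animal, by group (n = 6 each), with the mean and SD as bars. The 4 groups overlap in every panel, and the ratio stays between 0.833 and 0.910.

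Training was compared with the home cage in each genotype to ask whether ribosomal protein mRNAs changed within 30 minutes of learning. Of the 76 members, 62 passed the filter of a mean of 1 RPKM and were tested, 36 of the large and 26 of the small subunit. With limma on log2(RPKM + 0.5), fitted to all 12399 genes that passed and called at a Benjamini-Hochberg adjusted p under 0.05, 0 members were called in Baf53b+/- mice, where 1.03% of all tested genes were called. In wild-type mice 0 members were called, against 1.08% of all tested genes. An unadjusted p under 0.05 was reached by 3 of the 62 members in Baf53b+/- mice and by 1 in wild-type mice, against 10.99% and 11.1% of all tested genes. With the genotypes averaged, 0 members were called and 0 had an unadjusted p under 0.05, against 4.17% called and 16.8% with such a p among all tested genes. These counts come with narrow intervals for most members. The 95% interval lay inside a 1.25-fold change of RPKM + 0.5 in either direction for 55 of 62 members in Baf53b+/- mice. It did so for 52 in wild-type mice and for 58 with genotypes averaged. For members near 1 RPKM this bound allows a larger fold change of RPKM itself. The median difference over members was -0.01 in Baf53b+/- and 0.01 in wild-type mice (log2), against -0.001 and 0.01 over all tested genes.

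The members with the smallest p in these comparisons had small differences. Rpl15, a large subunit protein, had 12.7, 14.0 and 15.4 RPKM (lowest, median and highest) in trained Baf53b+/- mice and 14.3, 14.97 and 16.9 RPKM in home cage Baf53b+/- mice. The ranges overlapped and the difference of -0.12 ± 0.04 (log2, SE) had an adjusted p of 0.282 in limma. Rpl31 averaged 1.59 ± 0.21 RPKM in trained and 1.90 ± 0.28 RPKM in home cage Baf53b+/- mice, and Rpl34 averaged 3.46 ± 0.65 and 2.74 ± 0.57 RPKM (SD, n = 6 each), with limma adjusted p of 0.356 and 0.407. Rps19, which is the gene most often mutated in human Diamond-Blackfan anaemia, averaged 9.99 ± 0.72 RPKM in trained and 10.7 ± 0.87 RPKM in home cage Baf53b+/- mice (adjusted p = 0.553, limma). In wild-type mice the smallest p belonged to Rps15a, with 10.99, 13.2 and 14.2 RPKM in trained and 10.7, 11.7 and 12.7 RPKM in home cage animals. Its difference of 0.15 ± 0.07 (log2, SE) had an adjusted p of 0.423 in limma. In 3 groups, namely trained and home cage Baf53b+/- mice and home cage wild-type mice, the lowest Rps15a value (10.1, 11.1 and 10.7 RPKM) came from a library rich in choroid plexus. The other libraries rich in choroid plexus did not stand lowest. In trained and home cage Baf53b+/- mice they had 12.4 and 13.4 RPKM (group medians 12.4 and 13.5 RPKM). In trained wild-type mice such a library had 12.6 RPKM (group median 13.2 RPKM). Without the 6 libraries rich in choroid plexus the wild-type difference was 0.13 (adjusted p = 0.434, limma). Rpl36 and Rpl6 came next in wild type, with differences of 0.16 and 0.08 (log2) and limma adjusted p of 0.526 and 0.548. With genotypes averaged, Rpl34 (0.17), Rplp2 (0.08) and Rps24 (0.07, all log2) were among those with the smallest p, and the lowest limma adjusted p over members was 0.365.

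After training the medians of the subunits were small, and the difference between subunits was not tested. In Baf53b+/- mice the median difference was -0.04 over the 36 large and 0.01 over the 26 small subunit members, and in wild-type mice it was 0.02 and 0.01 (log2). With genotypes averaged the medians were -0.01 and 0.01. In Baf53b+/- mice the difference was positive for 12 of the 36 large and 15 of the 26 small subunit members, and in wild-type mice for 24 and 16. Differences of single members ran from -0.22 to 0.29 in Baf53b+/- mice and from -0.15 to 0.16 in wild-type mice.

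Genotype was compared within each condition to ask whether a reduced dose of BAF53b, a subunit of the neuronal BAF chromatin remodelling complex, goes with altered ribosomal protein mRNA levels. In home cage animals 0 of 62 members were called by limma, against 0.00807% of all tested genes, and after training 0 were called, against 0.00807%. Averaged over conditions 0 were called, against 0.0242% of all tested genes. An unadjusted p under 0.05 was found for 2, 3 and 3 members in these 3 comparisons, against 3.52%, 3.69% and 4.49% of all tested genes. The 95% interval lay inside a 1.25-fold change for 54, 49 and 57 of the 62 members. Median differences over members were 0.01, -0.02 and -0.01 (log2). Over the large subunit the medians were -0.04 after training and 0.02 without it, and over the small subunit -0.0027 and 0.00011.

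Rplp0, the base of the ribosomal stalk that binds elongation factors, had the smallest p of the members between genotypes in the home cage, though not after training. It had 38.7, 43.6 and 55.8 RPKM (lowest, median and highest) in home cage Baf53b+/- mice, against 53.5, 57.0 and 62.7 RPKM in home cage wild-type mice. The ranges overlapped only between 53.5 and 55.8 RPKM, where 1 Baf53b+/- library lay. The difference was -0.33 ± 0.11 (log2, SE), with a 95% interval of -0.55 to -0.10, and its limma adjusted p was 0.999. The two-sided exact permutation test, whose smallest possible p is 0.00216, gave an unadjusted p of 0.00866, one of 248 such tests made over members and comparisons. After training it had 40.7, 43.9 and 58.8 RPKM in Baf53b+/- mice, against 41.6, 54.4 and 61.0 RPKM in wild-type mice. Averaged over conditions the difference was -0.23 ± 0.08 (log2, SE; adjusted p = 0.999, limma).

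A few other members had small p between genotypes and did not pass. Rps27, whose gene model in the table spans only 229 bases, averaged 6.09 ± 0.43 RPKM in Baf53b+/- and 5.35 ± 0.70 RPKM in wild-type mice after training, and 6.38 ± 0.81 and 5.77 ± 0.45 RPKM in the home cage (SD, n = 6 each). Its difference averaged over conditions was 0.15 ± 0.05 (log2, SE; adjusted p = 0.999, limma). Rps28 averaged 3.11 ± 0.57 RPKM in Baf53b+/- and 2.49 ± 0.48 RPKM in wild-type mice after training, with a limma adjusted p of 0.993. Rpl15 differed by -0.12 and Rps19 by -0.12 after training, and Rps15a by 0.16 and Rps7 by -0.10 in the home cage (log2), all with limma adjusted p of 0.993 or 0.999. Rpl23a differed by 0.13 averaged over conditions (log2; adjusted p = 0.999, limma). The largest fitted difference, 0.40 (log2) in the home cage, belonged to Rpl26, whose gene model in the table spans 23 bases, shorter than a read, and whose values ran from 0.933 to 5.89 RPKM.

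The interaction asks whether the response to training differed between genotypes. With limma 0 of 62 members were called, against 0% of all tested genes. An unadjusted p under 0.05 was reached by 2 members, Rps15a and Rpl15, and by 2.49% of all tested genes. Rps15a had a response in Baf53b+/- minus that in wild type of -0.24 ± 0.09 and Rpl15 of -0.14 ± 0.06 (log2, SE), both with a limma adjusted p of 0.985, and without the 6 libraries rich in choroid plexus these were -0.22 and -0.12 (adjusted p = 0.957). Rpl31 and Rpl6 followed with -0.22 and -0.13 (log2). The interval lay inside a 1.25-fold change for 40 of 62 members. The median over members was -0.02, with -0.05 over the large and 0.01 over the small subunit (log2).

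**Figure D3:**
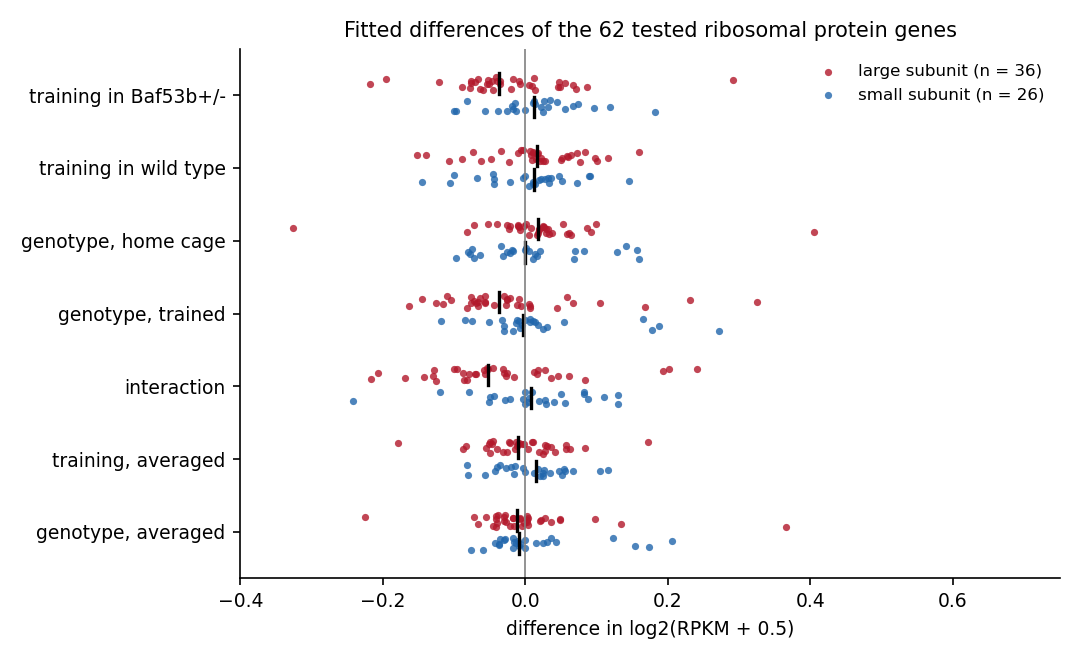
Fitted differences in log2(RPKM + 0.5) of the 62 tested ribosomal protein genes in 7 comparisons. Training is given over home cage, genotype as Baf53b+/- over wild type and the interaction as the Baf53b+/- response over the wild-type response, with the large subunit in red, the small subunit in blue and medians as black bars. Medians lie between -0.05 and 0.02 in all 7, and the points beyond 0.3 in size are Rplp0 at the lower end and Rpl26 at the upper.

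The 14 members below the filter gave the same counts when all 19661 genes were fitted. In each of the 7 comparisons 0 of the 14 were called by limma, and 0 had an unadjusted p under 0.05. The share called among all genes of that fit is not given here, so these counts have no background. The 0.5 added before the log2 also exceeds some of these levels and shrinks their differences. The 14 members held 0.288% of the RPKM of all members. Among them, Rpsa had a mean of 0.756 RPKM, and Rps27a, which is made as a fusion with ubiquitin, 0.344 RPKM. Rpl5 and Rpl11, which bind Mdm2 when ribosome assembly is disturbed, stood at 0.651 and 0.371 RPKM.

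Genes that make, regulate or work with ribosomes gave few calls. Other proteins of the cytosolic ribosome outside the naming rule, such as Fau, gave 0 calls of 7 tested in all 7 comparisons. So did 22 genes outside the family whose mRNAs are known to carry a pyrimidine tract, such as Eef1a1 and Tpt1. The 45 genes of ribosome assembly also gave 0 calls. Over all tested genes 0% to 4.17% were called in these comparisons, so these counts are near the background. Of 28 initiation and elongation factors, Eif5 alone was called, in the comparison of training averaged over genotypes, where 4.17% of all tested genes were called, so that 1 of 28 is near the background. It fell by 0.12 on the log2 scale (adjusted p = 0.013, limma). Of 24 genes of the mTOR and S6 kinase pathway, which acts on pyrimidine-tract mRNAs and phosphorylates the ribosomal protein of Rps6, 2 rose with training in Baf53b+/- mice, 2 in wild-type mice and 4 with genotypes averaged, against 1.03%, 1.08% and 4.17% of all tested genes called in either direction.

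Those mTOR pathway genes included inhibitors. Ddit4, which encodes the mTOR inhibitor REDD1, had 24.2, 26.2 and 28.7 RPKM (lowest, median and highest) in trained and 15.2, 19.4 and 20.7 RPKM in home cage Baf53b+/- mice. In wild-type mice it had 20.6, 24.2 and 30.1 RPKM after training and 17.8, 19.0 and 19.7 RPKM in the home cage. Neither pair of ranges overlapped, and Ddit4 rose by 0.47 ± 0.07 and 0.36 ± 0.07 (log2, SE; adjusted p = 0.00059 and 0.010, limma). Eif4ebp2, a repressor of cap-dependent initiation that is the main form of its family in brain, rose by 0.17 in Baf53b+/- mice (adjusted p = 0.013, limma), averaging 18.2 ± 0.82 RPKM in trained and 16.1 ± 0.68 RPKM in home cage animals. Tsc1, of the complex that restrains mTOR, rose by 0.17 in wild-type mice (adjusted p = 0.021, limma), averaging 10.1 ± 0.36 RPKM in trained and 8.95 ± 0.47 RPKM in home cage animals (SD, n = 6 each). Both also stood higher after training in the other genotype, without being called there. Eif4ebp2 averaged 17.6 and 16.1 RPKM in trained and home cage wild-type mice, and Tsc1 9.82 and 9.07 RPKM in Baf53b+/- mice. With genotypes averaged Eif4ebp2 rose by 0.15 and Tsc1 by 0.14 on the log2 scale (adjusted p = 0.00096 and 0.0024, limma). Larp4, an RNA-binding protein that stabilises mRNAs, rose by 0.12 with genotypes averaged (adjusted p = 0.0071, limma). Whether these responses differ between genotypes was tested by the interaction, in which 0 of the 24 were called. That comparison called 0% of all tested genes, so this count does not show that the responses were alike.

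Single members differed in how much they varied between animals of a group. On the log2(RPKM + 0.5) scale, the within-group SD had a median of 0.13 over the 62 tested members and 0.092 over the other tested genes. Among genes that averaged 10 RPKM or more the medians were 0.10 and 0.076. Rps3 and Rpl8 were among those that varied least, with SDs of 0.049 and 0.069, and Rpl26, Rpl29 and Rps2 varied most, with 0.58, 0.40 and 0.30. Rps3 ran only from 88.0 to 102 RPKM over the 24 animals. Across members SD and level went in opposite directions, with a Spearman rho of -0.73.

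A few members split the animals into a low and a high set that crossed the study's groups. They are described after their values were seen. Rps2, a small subunit protein, had 17.0 to 20.9 RPKM in 7 animals and 25.6 to 33.3 RPKM in the other 17, with no animal in between. The low animals were 1 of 6 trained and 1 of 6 home cage Baf53b+/- mice, and 2 of 6 trained and 3 of 6 home cage wild-type mice. Rpl29 had 4.53 to 6.59 RPKM in 7 animals and 7.89 to 11.6 RPKM in 17, with low animals in all 4 groups. Rplp0 had 38.7 to 44.1 RPKM in 10 animals and 52.3 to 62.7 RPKM in 14. Its low animals were 4 of 6 trained and 4 of 6 home cage Baf53b+/- mice, and 2 of 6 trained and 0 of 6 home cage wild-type mice.

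Many of the genes whose values moved most closely with these members were their neighbours on the chromosome. For each tested gene the 10 other genes with the largest absolute correlation over the 24 animals were listed, on deviations from the group means. For Rps2, at 24857008 to 24858872 on chromosome 17 (mm9), 10 of the 10 lay within 20 Mb, led by the zinc finger gene Zfp758 with r = 0.90 at a distance of 2.35 Mb and Abca3 with r = -0.89 at 0.34 Mb. For Rpl29, at 106331870 to 106333898 on chromosome 9, 8 of 10 did, led by Ccdc72 with r = 0.88 at 2.65 Mb. For Rplp0, at 116009476 to 116013738 on chromosome 5, 5 of 10 did, among them Idua with r = 0.82 at 6.91 Mb, Coro1c with r = 0.79 at 1.69 Mb and Gcn1l1 with r = -0.76 at 0.0324 Mb. For Rps6, at 86500003 to 86503271 on chromosome 4, 4 of 10 did, led by Pgm2 with r = 0.92 at 13.1 Mb, and its 24 values ran from 1.14 to 2.33 RPKM.

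Members formed a graded series in this respect. At least 4 of the 10, a minimum chosen after the values were seen, lay within 20 Mb for 4 of 62 members (6.45%) and for 1.24% of the other 12337 tested genes. Rpl36 and Rps15a followed with 3 of 10 and Rpl6 with 2, and none of the 10 lay within 20 Mb for 74.2% of members and 79.8% of the other genes. Rplp0 lies 21.99 Mb from Actl6b, the targeted gene, at 137994783 to 138010801 on the same chromosome. Rpl6 and Rpl21 lie nearer to it, at 16.3 and 9.64 Mb. Rpl6 had the 2 of 10 given above, and Rpl21 was below the filter. Rps2 and Rpl29 match 99 and 123 annotated pseudogenes, more than any other member but Rpl7a with 160 and Rpl21 with 112. Rplp0 and Rps6 match only 14 and 24, against a median of 15 over the members. The animals that were low differed between Rps2, Rpl29 and Rplp0, whose widest gaps were 0.29, 0.24 and 0.24 on the log2(RPKM + 0.5) scale. Rps6 had no clear split. Its widest gap was 0.098, narrower than those of Rpl26 (0.18) and Rps18 (0.12). The correlations between the 4 members ran from -0.30 for Rps2 and Rplp0 to 0.49 for Rpl29 and Rps6. Genotypes at these loci were not analysed here, and what separates the low from the high animals was not tested.

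**Figure D4:**
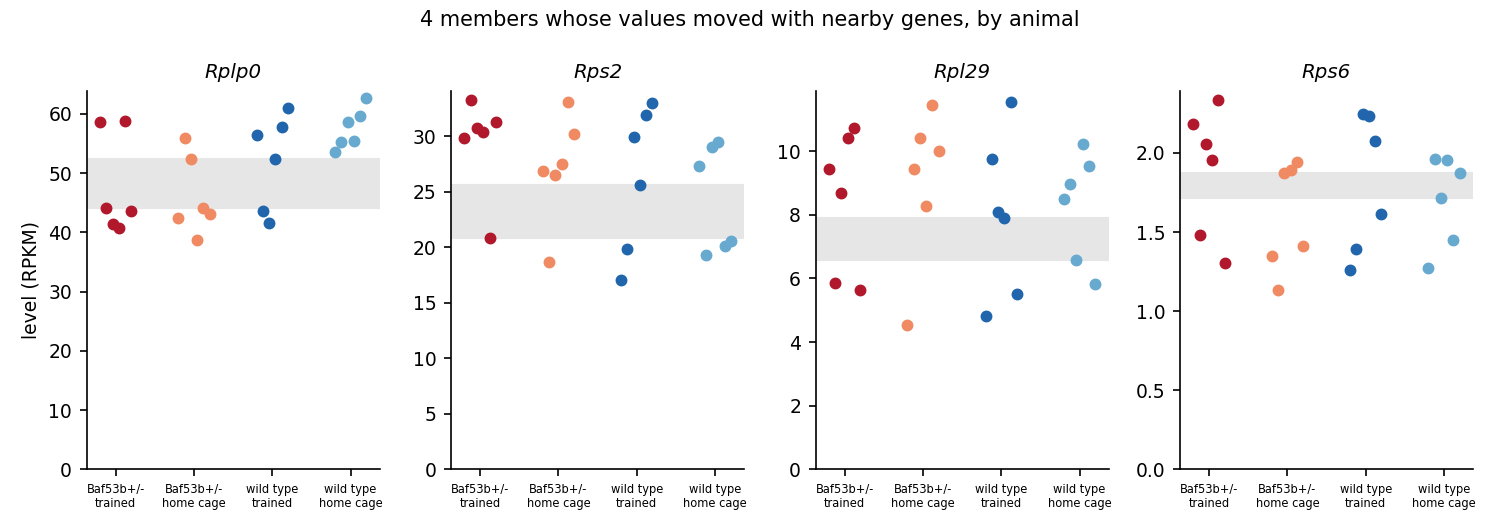
Level (RPKM) of Rplp0, Rps2, Rpl29 and Rps6 in each of the 24 animals by group, with the widest interval free of animals (at least 5 on either side) in grey. Low and high animals occur in most groups, while all 6 home cage wild-type animals lie above the interval of 44.1 to 52.3 RPKM for Rplp0. For Rps6 the interval is narrow (1.72 to 1.87 RPKM) and marks no clear split.

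Most members co-varied from animal to animal. Each member's deviation from its group means was correlated over the 24 animals with the mean of the other members. All these values share the libraries and their composition, so they are a description. The median r was 0.47 over the 62 tested members, against 0.072 over the 12337 other tested genes, and r exceeded 0.5 for 27 members (43.5%) and 6.18% of the other genes. The stalk proteins Rplp1 and Rplp2 came first with r of 0.85 and 0.83, then Rps3a with 0.82. Rps27, Rps15a and Rpl15 came last with -0.30, -0.27 and -0.24, and 7 members in all were below 0. Without Rps2, Rpl29, Rplp0 and Rps6, which were chosen after the values were seen, the median over the 58 others was 0.54. Their own r was 0.014, -0.027, 0.29 and 0.048, all below the median of 0.47. Leaving them out therefore moves the median up by itself, and the rise is not a result.

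Level went with this co-variation. The median r was 0.59 over the 38 members of at least 10 RPKM and 0.24 over the 24 below it, and the Spearman rho between r and level was 0.51. Pairs of members of the same subunit had a median r of 0.22 and pairs of different subunits also 0.22, and 75.2% of all pairs were positive. The mean of the large subunit members and that of the small subunit members had r = 0.78 over the 24 animals. The size of the shared movement was small, since the mean over members had an SD of 0.060 and a range of 0.22 (log2) between animals.

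Some genes outside the family moved closely with the members. The 5 genes outside the family with the highest correlation to the mean of the members were Tmem14c (0.87), the superoxide dismutase gene Sod1 (0.87), the ATP synthase gene Atp5e (0.85), Edf1 (0.84) and the respiratory complex III gene Uqcr11 (0.83). The mean over 78 respiratory chain genes had r = 0.89 with the mean over members, and the mean over 75 mitochondrial ribosomal protein genes r = 0.78. For the 10941 other genes with a known coding transcript length, the median r was 0.18 below 800 bases, 0.20 between 800 and 1200 bases and -0.18 above 5000 bases. The median was 0.47 over the members and 0.50 over the 78 respiratory chain genes. The length classes were not matched for level, and the part of transcript length in the shared movement was not tested.

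Features of the libraries moved with it to a lesser degree. The mean over members had r = -0.20 with depth and 0.40 with the choroid plexus markers, and of the 6 libraries rich in choroid plexus 4 lay above the mean of their group. Markers of neurons had r = -0.40 with it, and markers of astrocytes 0.34. Without the 6 libraries the median r over members was 0.46, and 0.48 with that score as a covariate. The part of the tissue sampled and of RNA quality in the shared movement was not tested.

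**Figure D5:**
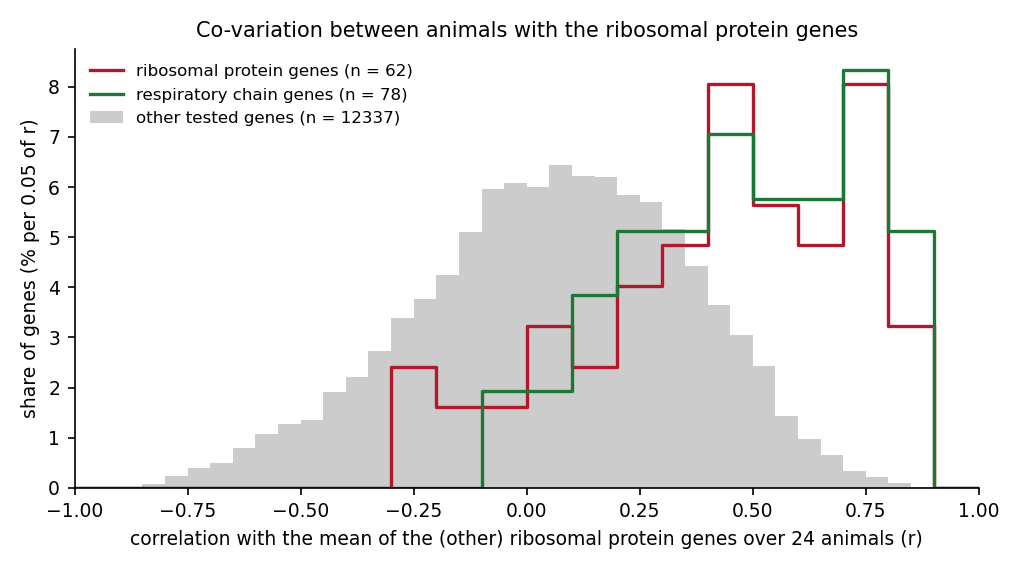
Share of genes (% per 0.05 of r) by correlation over 24 animals with the mean of the (other) ribosomal protein genes, for 62 ribosomal protein genes in red, 78 respiratory chain genes in green and 12337 other tested genes as grey bars. Both sets lie to the right of the other genes, with medians of 0.47 and 0.50 against 0.072.

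The sequence around the transcription start gives the feature by which these mRNAs are known. RefSeq promoters on GRCm38.p6, each 250 bases before to 50 after a start, were found for 57 of the 76 members, with 67 starts. A run of at least 8 letters C or T on the gene's strand lay within 25 bases of the start in 31 of 67 (46.3%), against 19.7% of all 32851 promoters. On the opposite strand it was 6 of 67 (8.96%) against 21.6%. A run of at least 5 such letters held the annotated start itself in 20 of 67 (29.9%), against 10.1% of all. CCGGAAG, a motif of ETS factors, occurred on either strand in 25 of 67 (37.3%), against 8.86% of all, and GCCATCTT, the core of the YY1 motif, in 7 of 67 (10.4%), against 2.75%. A match is a description and not a site of binding.

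The 15 bases on either side of the start are shown for members with a RefSeq entry among the 3 most and the 3 least co-varying, with the longest pyrimidine run in capitals.
Rplp2: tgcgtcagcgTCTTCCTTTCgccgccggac
Rps3a: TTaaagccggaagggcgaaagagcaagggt
Rpl15: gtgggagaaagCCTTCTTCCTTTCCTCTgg
Rps15a: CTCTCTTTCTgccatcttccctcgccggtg
Rps27: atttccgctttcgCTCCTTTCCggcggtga
Rps27 and Rps15a, the members with the lowest r, and Rplp2, with one of the highest, all held a run of at least 9 pyrimidines here, and the run of Rpl15 was 17 letters long. In Rps15a the run is followed by gccatctt, the YY1 core named above. Rps3a held no pyrimidine run longer than 2 letters and has the ETS motif just before its annotated start, as ccggaag. The windows lie at chr7:141447636-141447665 (plus strand) for Rplp2, chr3:86142654-86142683 (minus) for Rps3a and chr14:18270972-18271001 (minus) for Rpl15. Those of Rps15a and Rps27 lie at chr7:118116133-118116162 (minus) and chr3:90213634-90213663 (minus), all on GRCm38.p6.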

How the data were processed

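The single table deposited by the authors holds RPKM values, 1 column per mouse, with mm9 positions; per the submitters' processing notes CASAVA 1.8.2 and Bowtie 0.12.8 were used. The sources used here do not state the annotation or how multiply matching reads were counted. Per the labels' protocols, TruSeq v2 libraries were pooled in 4 multiplexes with every group on each flow cell; the sources used here do not tie animals to pools, so no batch was fitted. Replicates are separate animals. Depth was recovered from the steps of 935 single-exon genes with up to 30 reads. At the depth taken, 44.2% to 54.8% of them came out whole to within 0.05 reads. For each library, the median share across candidate depths was 8.47% or lower. That median is not the highest share at another depth, which is not given here.

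The log2 of RPKM + 0.5 was fitted with limma 3.58.1 in R 4.3.3 (4 groups in 1 model, empirical Bayes with trend and robust settings) for genes averaging 1 RPKM or more. The script was checked on simulated data first. Unique windows were counted with Python 3.11.15 in GENCODE vM21 transcripts on GRCm38; 1 symbol, Rps3a, was matched as Rps3a1. Coordinates of the 2 builds were not mixed.

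Members named are the reference genes of quantitative PCR, the 5 highest and 5 lowest, the 3 most and 3 least variable, the 3 most and 3 least co-varying, stalk and signalling members, and in each comparison the 4 with the smallest p; any others were chosen after their values were seen, and a few that the rule names are not reported here. Members and lists were chosen with earlier results of these data known.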

Additional observations from a re-analysis of the deposited data

Results flagged for a closer look

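In 192 sets of 6 animals (44 of the members and the sums, each in 4 groups), 8 held an animal far from the others by Dixon's criterion, and chance alone flags about 1 in 20. Rpl32 stood at 98.3 RPKM in 1 trained Baf53b+/- mouse against at most 89.2 RPKM in the other 5. Rpl11 stood at 0.631 RPKM in another trained Baf53b+/- mouse. Rps15a was lowest, at 10.1 RPKM, in a different trained Baf53b+/- mouse against at least 12.3 RPKM in the others, and that library is rich in choroid plexus markers (1291 RPKM). The same animal held the lowest Rps2 value of its group, at 20.9 RPKM. Rps3 stood at 102 RPKM in 1 trained wild-type mouse. Rpl10 stood at 0.603 RPKM in 1 home cage Baf53b+/- mouse, Rpl19 at 1.18 RPKM in 1 trained wild-type mouse and Rpl24 at 0.434 RPKM in 1 home cage wild-type mouse. Rpl10, Rpl11, Rpl19 and Rpl24 are below the filter of 1 RPKM.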

How the results depend on the processing

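In every alternative run, 0 members were called in each of the 7 comparisons: pseudocounts of 0.1 and 1, no filter or a mean of at least 5 RPKM, libraries centred on the median gene, quantile normalization, only the groups compared, no trend and robust settings, the choroid plexus score as a covariate, the 9 libraries over 3 times the median choroid plexus sum left out, and each of the 24 libraries left out in turn. The same held without the 6 libraries over 20 times that median, an alternative chosen after seeing the data. The fit to only the groups compared gave no value for the interaction and the averages. Scaling moved the median gene by at most 0.020 (log2). Medians over members were near 0 and changed sign under some of these settings, staying between -0.05 and 0.04 (log2). With single libraries left out, the difference of Rplp0 between genotypes in the home cage lay between -0.38 and -0.28 (limma adjusted p of 0.862 to 0.9999), and the median co-variation between 0.42 and 0.51. That median was 0.40 under quantile normalization, 0.43 without the 9 libraries, 0.62 for members of at least 5 RPKM and 0.64 for members of at least 10 RPKM set only against each other. No paired analysis was possible because animals of different groups share no number in the labels. The 14 members below 1 RPKM rest on few reads per kilobase, so small changes in them were not detectable. What keeps their counts low was not tested.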
